A study of Mus musculus with 15 samples.

Results

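Potassium channel genes were examined in total RNA of mouse cortex, taken 1 month after an exposure to high-frequency head impact (HF-HI). They were chosen by name, as protein-coding transcripts of genes whose GENCODE M21 symbol begins with Kcn. The rule itself used no measured values, though it was set with earlier results of these data known. The file lists 59 such transcripts of 45 genes, out of 10370 transcripts in all. Of 94 annotated protein-coding Kcn genes, 48 had no listed transcript, and Kcnn1, Kcnn2, Kcnn3, Kcnj16 and Kcnip1 were among those not analysed here. A further 7 listed Kcn transcripts are of other classes, such as retained introns, and were used only in sums per gene and in shares within a gene.

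Both groups were male C57BL/6 mice labelled as 12 weeks of age, and the dissected tissue was cortex. HF-HI mice (n = 8 libraries) received repeated head impacts under isoflurane on consecutive days. The Sham group (n = 7 libraries) shared the isoflurane and the daily procedure but was not struck. The labels do not say that every library came from a different animal, so p-values measure the spread between these libraries. The comparison asks how potassium channel transcripts differ between HF-HI and Sham cortex at 1 month.

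Potassium channels let potassium leave the cell, which repolarizes the membrane after an action potential and sets the resting potential. Voltage-gated Kcna to Kcnd subunits shape spikes and repetitive firing, Kcnq subunits carry the M-current, and Kcnj subunits include the G protein-gated channels opened by neurotransmitter receptors. Kcnk channels carry background current, Kcnma1 is opened by calcium and voltage, and Kcnt1 and Kcnt2 are opened by intracellular sodium. In bulk tissue, fewer cells of a type and less RNA per cell cannot be told apart.

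The deposited values are variance-stabilized (VSD), a log2-like scale that is compressed at low counts. They were converted back to normalized counts (reads divided by the library's size factor), and every log2 ratio below is of mean normalized counts unless stated otherwise. Reads recovered in listed transcripts numbered 5798810 to 10582858 in the Sham libraries and 3496103 to 8666307 in the HF-HI libraries, and the HF-HI minus Sham difference in mean log2 size factor was −0.55. Library depth therefore overlaps with group, and fits with depth as a covariate are given beside the results. HF-HI replicate 2 stood apart on the first principal component (12.6, against −3.35 to 0.721 for the others), and results without it are given below.

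After Benjamini-Hochberg adjustment of the limma p-values over the whole file, 0 of 59 potassium channel transcripts passed at 0.1, and the share over all transcripts was also 0%. Among the 59 the smallest adjusted value was 0.345. At an unadjusted p under 0.05, 10 of 59 (16.95%) were called, beside 8.83% of all 10370 transcripts. Of the 10, 6 were higher in HF-HI and 4 were lower, beside 4.94% higher and 3.9% lower over all transcripts. With depth as a covariate 3 were called, 2 higher and 1 lower, beside 5.14% of all transcripts. The median log2 ratio was 0.027 over the 59 and −0.0019 over all transcripts, and 38 of the 59 had a positive difference, beside 5028 of 10370. With depth as a covariate 30 of the 59 did, and 12 of the 59, none of them among the 10 called, changed sign. In 0 of the 59 were the groups free of overlap, beside 0.154% of all transcripts.

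**Figure D1:**
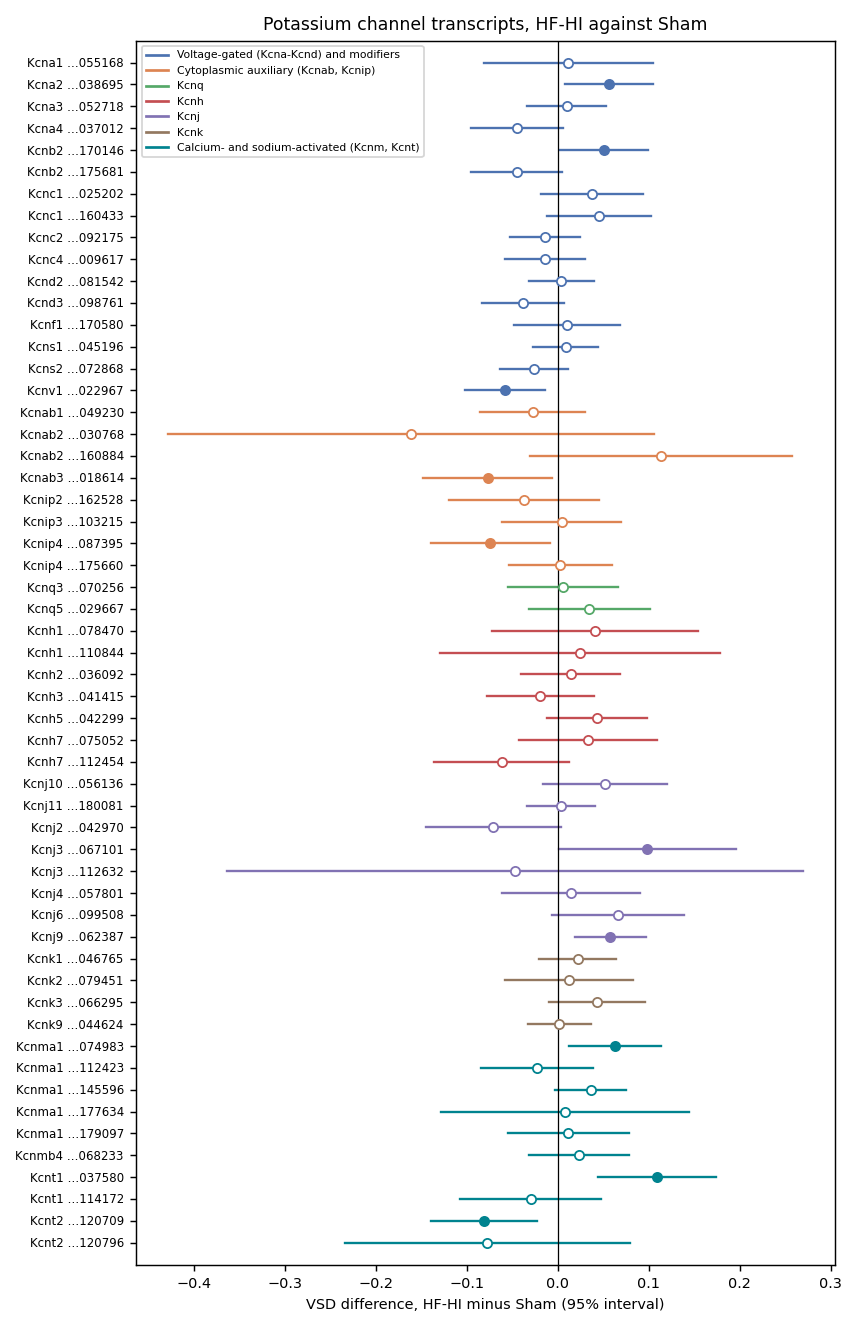
Difference in VSD (HF-HI minus Sham, horizontal axis) for 55 of the 59 potassium channel transcripts, with the 95% interval from limma as a line and colors for subfamilies. Filled points are the 10 transcripts at an unadjusted p under 0.05, of which 6 lie to the right of zero and 4 to the left.

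Levels were compared between genes per kb of transcript (normalized counts per kb, mean of the 15 libraries). Kcna1, a subunit of low-threshold axonal channels, was the highest at 877 per kb. Elsewhere the highest of their subfamilies were Kcnab2 (ENSMUST00000160884, 412.5 per kb), Kcnmb4 (380.0), Kcnj4 (365), Kcnk1 (355) and Kcnh7 (ENSMUST00000075052, 262). The lowest was Kcnb2 ENSMUST00000170146 at 10.6 per kb, a transcript of 14845 bases. Over the 59, mean normalized counts ran from 129 to 3536 with a median of 519.5, against 316.5 over all transcripts.

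**Figure D2:**
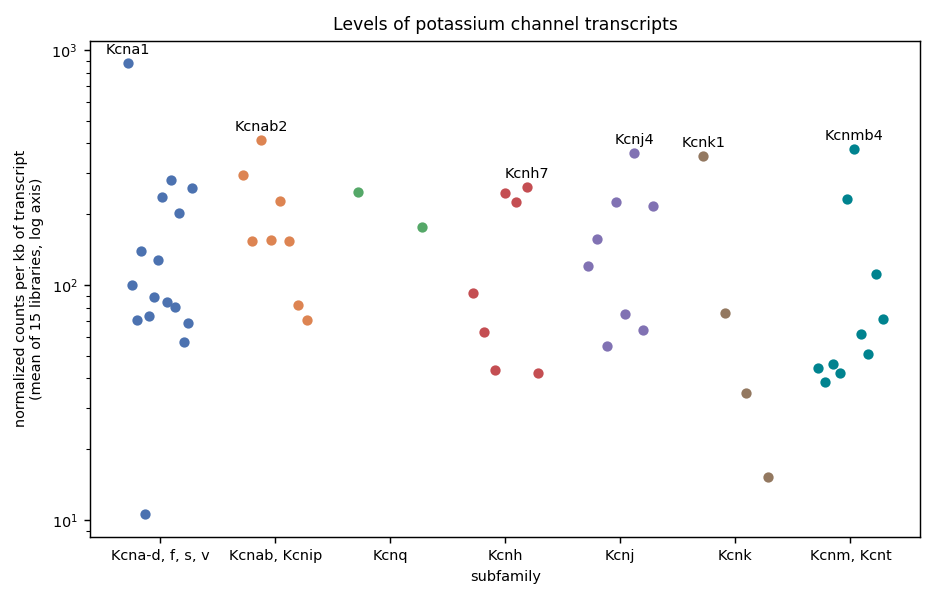
Mean level of 55 potassium channel transcripts over 15 libraries, in normalized counts per kb of transcript on a log axis, by subfamily. The transcript with the highest level is named in every subfamily but Kcnq, and Kcna1 stands above all others at 877 per kb.

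Among voltage-gated subunits and their silent modifiers (Kcna to Kcnd, Kcnf, Kcns and Kcnv), 3 of 18 transcripts were called, 2 higher and 1 lower, beside 8.83% of all transcripts. With depth as a covariate 2 of the 18 were called, beside 5.14%. Kcna2 (ENSMUST00000038695, chr3:107101567-107115005, + strand, GRCm38), a subunit of axonal delayed rectifiers, had 1015 to 1196 normalized counts in Sham (median 1101), against 1062 to 1278 in HF-HI (median 1223). Of the 8 HF-HI libraries, 5 lay above every Sham library, and the groups overlapped. The means were 1106 ± 66.7 and 1198 ± 74.1 (SD, n = 7 and 8), a log2 ratio of 0.11 (limma unadjusted p = 0.0265, adjusted p = 0.514). Its call was lost with depth as a covariate (unadjusted p = 0.153) and without any of 5 libraries (HF-HI replicates 4 and 6, Sham replicates 1, 2 and 4), where the largest value was an unadjusted p = 0.0632.

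Kcnv1 (ENSMUST00000022967, chr15:45106284-45114827, − strand) encodes a silent subunit that alters Kv2 channels. It had 1111 to 1269 normalized counts in Sham (median 1159), against 989 to 1186 in HF-HI (median 1103), so that 7 of 8 HF-HI libraries were below the Sham median. The means were 1180 ± 58.2 and 1087 ± 64.7 (log2 ratio −0.12, limma unadjusted p = 0.0135, adjusted p = 0.4485). The call held with depth as a covariate (limma unadjusted p = 0.0441). It was lost in libraries of a size factor above 1 (unadjusted p = 0.117). That setting kept only HF-HI replicates 3, 5 and 8 and all Sham libraries but replicate 3, so it compared fewer libraries.

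Kcnb2, a Kv2 delayed rectifier, has a pair of listed transcripts with the same coding sequence, which differ outside it. ENSMUST00000170146 (chr1:15312452-15723750, + strand) carries 11202 bases that the other lacks. It had 131 to 163 normalized counts in Sham (median 136.5), against 139 to 231 in HF-HI (median 159), and every one of the 8 HF-HI values exceeded the Sham median. Its means were 143 ± 11.6 and 170.3 ± 31.3 (log2 ratio 0.26, limma unadjusted p = 0.0418, adjusted p = 0.554). The partner transcript ENSMUST00000175681 had 311 ± 30.4 and 278 ± 36.2 (log2 ratio −0.16, unadjusted p = 0.0727). Their reads summed per gene were 454 ± 37.2 in Sham and 448.5 ± 32.2 in HF-HI, a log2 difference of −0.01 with a 95% interval of −0.13 to 0.11. The transcript call was lost without any of 9 libraries (HF-HI replicates 3, 4, 5 and 8, Sham replicates 2, 3, 4, 6 and 7), with the largest value an unadjusted p = 0.0806, and with the striatal covariate described below (unadjusted p = 0.0922).

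The other 15 transcripts of this group did not pass at the unadjusted level. Kcnd2, the main Kv4 subunit of the somatodendritic A-type current, had Sham and HF-HI means of 1430 ± 52.1 and 1437 ± 54.2 normalized counts, and Kcnd3 had 602 ± 51.6 and 560 ± 33.4 (unadjusted p = 0.0873), with all 8 HF-HI libraries of Kcnd3 below the Sham median. Kcna1 had 3512 ± 247 and 3558 ± 344, and Kcna4 had 699 ± 64.7 and 646 ± 43.5. Kcnc2, a Kv3 subunit of fast-spiking cells, had 1202 ± 53.4 and 1179 ± 53.5.

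Among cytoplasmic auxiliary subunits (Kcnab and Kcnip), 2 of 8 transcripts were called, both lower in HF-HI, beside 8.83% of all transcripts. With depth as a covariate 0 of the 8 were called, beside 5.14%. Kcnab3 (ENSMUST00000018614, chr11:69326258-69333042, + strand), a beta subunit of Kv1 channels, had 362.5 to 540 normalized counts in Sham (median 421.5), against 291 to 442 in HF-HI (median 354). The means were 431 ± 59.3 and 364 ± 58.7 (log2 ratio −0.24, limma unadjusted p = 0.0346, adjusted p = 0.533), with 6 of 8 HF-HI libraries below the Sham median. It was not called with depth as a covariate (unadjusted p = 0.123), with library weights (unadjusted p = 0.0631) or in libraries of a size factor above 1 (unadjusted p = 0.321), nor without any of 7 libraries (HF-HI replicates 1, 2, 6 and 8, Sham replicates 2, 5 and 7), where the largest value was an unadjusted p = 0.0839.

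Kcnip4 encodes a calcium-binding protein that attaches to Kv4 channels and alters their inactivation. ENSMUST00000087395 (chr5:48389502-49524907, − strand) had 176 to 261 normalized counts in Sham (median 221), against 116 to 248 in HF-HI (median 173), with 7 of 8 HF-HI libraries below the Sham median. Its means were 218 ± 29.6 and 175 ± 40.4 (log2 ratio −0.32, limma unadjusted p = 0.0280, adjusted p = 0.514). The other transcript, ENSMUST00000175660, had 169 ± 28.7 and 170.5 ± 27.7. The pair differ at the start of the coding sequence, which is shown because it sets the N-terminus of each product. Capitals mark coding bases in no other listed transcript of the gene and lower case marks shared coding bases.
Kcnip4 ENSMUST00000087395, spliced from 2 exons within chr5:48509659-49524701: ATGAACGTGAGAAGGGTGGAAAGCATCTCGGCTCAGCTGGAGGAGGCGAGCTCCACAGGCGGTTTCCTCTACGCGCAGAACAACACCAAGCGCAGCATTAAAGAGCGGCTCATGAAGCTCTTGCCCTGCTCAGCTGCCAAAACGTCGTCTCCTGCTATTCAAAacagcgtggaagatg
Kcnip4 ENSMUST00000175660, chr5:49285253-49285340: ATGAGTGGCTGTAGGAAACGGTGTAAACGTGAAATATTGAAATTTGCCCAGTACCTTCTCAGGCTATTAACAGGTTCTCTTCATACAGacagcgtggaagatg
The call of ENSMUST00000087395 was lost with depth as a covariate (limma unadjusted p = 0.531), in libraries of a size factor above 1 (unadjusted p = 0.2287) and without HF-HI replicate 2 or 4 or Sham replicate 1 or 7 (largest unadjusted p = 0.0636). Its share of the gene's counts was 56.4 ± 6.8% in Sham and 50.4 ± 7.1% in HF-HI. Kcnab1 (969 ± 63.2 and 930 ± 83.6), the Kcnab2 transcripts ENSMUST00000160884 (1493 ± 238 and 1727 ± 328) and ENSMUST00000030768 (617 ± 199 and 477 ± 221), Kcnip2 (567 ± 71.5 and 529 ± 85.0) and Kcnip3 (419.5 ± 79.6 and 420.2 ± 26.7) were not called.

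None of 4 Kcnq and 7 Kcnh transcripts passed at the unadjusted level. Kcnq3 is a subunit of the M-channel, which opposes repeated firing, and it had 2930 ± 119.5 and 2949 ± 202, and Kcnq5 had 1129 ± 85.7 and 1187 ± 115. All 4 Kcnq differences were positive, though with depth as a covariate the VSD difference of Kcnq3 was −0.0047. Among Kcnh genes, Kcnh1 encodes an ether-a-go-go channel and its transcripts had log2 ratios of 0.11 and 0.09. Kcnh7 ENSMUST00000075052 had 3431 ± 212 and 3546 ± 271.

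Among inward rectifiers (Kcnj), 2 of 8 transcripts were called, beside 8.83% of all transcripts. Both were higher in HF-HI, and both belong to G protein-gated channels. With depth as a covariate 0 of the 8 were called, beside 5.14%. Kcnj9 (ENSMUST00000062387, chr1:172320501-172329318, − strand, the GIRK3 subunit) had 759 to 859 normalized counts in Sham (median 796), against 800.5 to 980.3 in HF-HI (median 874). All 8 HF-HI values exceeded the Sham median and 6 exceeded every Sham library. The means were 797 ± 33.8 and 875 ± 54.0 (log2 ratio 0.13, limma unadjusted p = 0.00665, adjusted p = 0.398). The call was lost with depth as a covariate (limma unadjusted p = 0.117) and in libraries of a size factor above 1 (unadjusted p = 0.2698).

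Kcnj3, the GIRK1 subunit, has a longer transcript, ENSMUST00000067101 (chr2:55435970-55598145, + strand), and a shorter one, ENSMUST00000112632. The longer transcript had 989 to 1259 normalized counts in Sham (median 1035), against 988 to 1588 in HF-HI (median 1227). Its means were 1084 ± 105 and 1249 ± 193 (log2 ratio 0.21, limma unadjusted p = 0.0475, adjusted p = 0.561). The shorter transcript had 312 ± 134 and 303 ± 171, and it was at 22.4 in Sham replicate 4 and listed at 0 in HF-HI replicate 7, the library with the highest value of the longer transcript. The longer form contains a stretch of 217 coding bases that the shorter one lacks, shown in capitals because reads over it separate the pair. The coding sequence is 1503 bases in the longer form and 705 in the shorter. Lower case here marks coding bases of the longer form that lie in exons of both forms. Those after the capitals are not all coding in the shorter form.
Kcnj3 ENSMUST00000067101, chr2:55446826-55447042: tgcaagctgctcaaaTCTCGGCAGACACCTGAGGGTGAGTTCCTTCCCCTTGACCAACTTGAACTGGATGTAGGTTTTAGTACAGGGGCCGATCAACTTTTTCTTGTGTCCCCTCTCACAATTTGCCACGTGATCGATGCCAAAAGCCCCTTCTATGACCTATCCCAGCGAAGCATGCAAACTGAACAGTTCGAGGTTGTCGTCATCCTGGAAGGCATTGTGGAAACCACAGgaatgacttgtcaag
The call of the longer transcript was lost with the depth covariate (unadjusted p = 0.297), voom on the reads (unadjusted p = 0.0669), only libraries of a size factor above 1 (unadjusted p = 0.0667) and the striatal covariate (unadjusted p = 0.0778). It was also lost without any of 10 libraries (HF-HI replicates 2, 3, 4, 7 and 8, Sham replicates 1, 2, 3, 6 and 7), with the largest value an unadjusted p = 0.0922.

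The remaining Kcnj genes were not called as transcripts. Kcnj6 (ENSMUST00000099508, the GIRK2 subunit) had 178 ± 49.3 and 216 ± 35.3 (log2 ratio 0.28, limma unadjusted p = 0.0726). Kcnj10, the astrocytic channel that buffers potassium, had 618 ± 85.3 and 677 ± 67.3 (unadjusted p = 0.127), and Kcnj4 had 774 ± 80.7 and 794 ± 104. None of 4 Kcnk transcripts were called, and Kcnk1, Kcnk2 and Kcnk9 had log2 ratios of 0.05, 0.05 and 0.0043. The other member, Kcnk3, had 121 ± 22.3 and 142 ± 23.7 (log2 ratio 0.23, limma unadjusted p = 0.101).

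Among calcium- and sodium-activated channels (Kcnm and Kcnt), 3 of 10 transcripts were called, 2 higher and 1 lower, beside 8.83% of all transcripts. With depth as a covariate 1 of the 10 was called, beside 5.14%. Kcnt1 ENSMUST00000037580 (chr2:25877873-25918273, + strand) had the smallest p of all 59. Kcnt1 encodes Slack, a sodium-activated channel that contributes to the slow afterhyperpolarization. It had 236 to 371 normalized counts in Sham (median 343), against 333 to 469 in HF-HI (median 398), and 7 of 8 HF-HI libraries lay above every Sham library. The means were 316 ± 54.8 and 405 ± 43.8 (log2 ratio 0.36, limma unadjusted p = 0.00272, adjusted p = 0.345). The call was kept in each of 12 alternative fits and with each library left out in turn, and it held with depth as a covariate (limma unadjusted p = 0.0215).

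Kcnt1 ENSMUST00000037580 carries a coding exon stretch of 42 bases near the start of the coding sequence that no other listed Kcnt1 transcript has. It is shown in capitals because it separates the transcript that was higher from the rest of the gene.
Kcnt1 ENSMUST00000037580, chr2:25882196-25882237: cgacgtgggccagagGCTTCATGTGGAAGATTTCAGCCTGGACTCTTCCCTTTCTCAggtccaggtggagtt
The other coding transcript, ENSMUST00000114172, had 275 ± 46.3 and 255 ± 54.7 normalized counts, and the retained-intron transcript ENSMUST00000138568 had 180.2 ± 42.1 and 120.3 ± 49.2. Their reads summed to 772 ± 70.4 in Sham and 781 ± 85.0 in HF-HI, a log2 difference of 0.03 with a 95% interval of −0.12 to 0.18 (voom, limma unadjusted p = 0.6902).

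Kcnma1, the pore of the large-conductance calcium-activated BK channel, has 5 listed coding transcripts and 1 of them was called. ENSMUST00000074983 (chr14:23299395-23803304, − strand) had 123 to 179.9 normalized counts in Sham (median 164), against 157 to 236 in HF-HI (median 184), with 5 of 8 HF-HI libraries above every Sham library. The means were 157 ± 20.03 and 192 ± 30.03 (log2 ratio 0.30, limma unadjusted p = 0.0177, adjusted p = 0.476). This transcript includes the STREX exon, a known alternative exon of BK channels, and a shorter stretch of 12 bases, both absent from the other listed Kcnma1 transcripts and shown in capitals.
Kcnma1 ENSMUST00000074983, STREX, chr14:23425567-23425740: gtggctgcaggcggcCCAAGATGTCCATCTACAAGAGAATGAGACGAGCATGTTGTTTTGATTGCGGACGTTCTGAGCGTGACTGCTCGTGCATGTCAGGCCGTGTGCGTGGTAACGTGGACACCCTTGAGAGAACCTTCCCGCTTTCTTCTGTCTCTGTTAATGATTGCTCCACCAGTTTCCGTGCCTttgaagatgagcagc
Kcnma1 ENSMUST00000074983, 12-base stretch, chr14:23442080-23442091: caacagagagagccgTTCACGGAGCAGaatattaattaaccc
The most abundant form, ENSMUST00000179097, had 1061 ± 66.7 and 1081 ± 118, and summed reads of Kcnma1 were 2091 ± 59.4 and 2184 ± 104 (log2 difference 0.06, 95% interval −0.0040 to 0.13). The call of ENSMUST00000074983 was lost with depth as a covariate (limma unadjusted p = 0.0846). Kcnmb4, the neuronal beta subunit of BK, had 506 ± 24.3 and 531 ± 66.9.

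Kcnt2, the Slick sodium-activated channel, was lower in HF-HI. ENSMUST00000120709 (chr1:140246158-140612067, + strand) had 643 to 740 normalized counts in Sham (median 696), against 495 to 683 in HF-HI (median 605), with all 8 HF-HI values under the Sham median. The means were 693 ± 36.0 and 601 ± 74.7 (log2 ratio −0.20, limma unadjusted p = 0.00917, adjusted p = 0.408). The other transcript, ENSMUST00000120796, had 275 ± 70.1 and 234 ± 102. It includes a stretch of 72 coding bases that ENSMUST00000120709 lacks.
Kcnt2 ENSMUST00000120796, chr1:140530753-140530824: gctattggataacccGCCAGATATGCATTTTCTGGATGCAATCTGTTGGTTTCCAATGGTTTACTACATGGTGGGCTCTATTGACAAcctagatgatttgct
The call was lost with depth as a covariate (limma unadjusted p = 0.234) and in libraries of a size factor above 1 (unadjusted p = 0.2298), and it was kept with each library left out in turn.

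**Figure D3:**
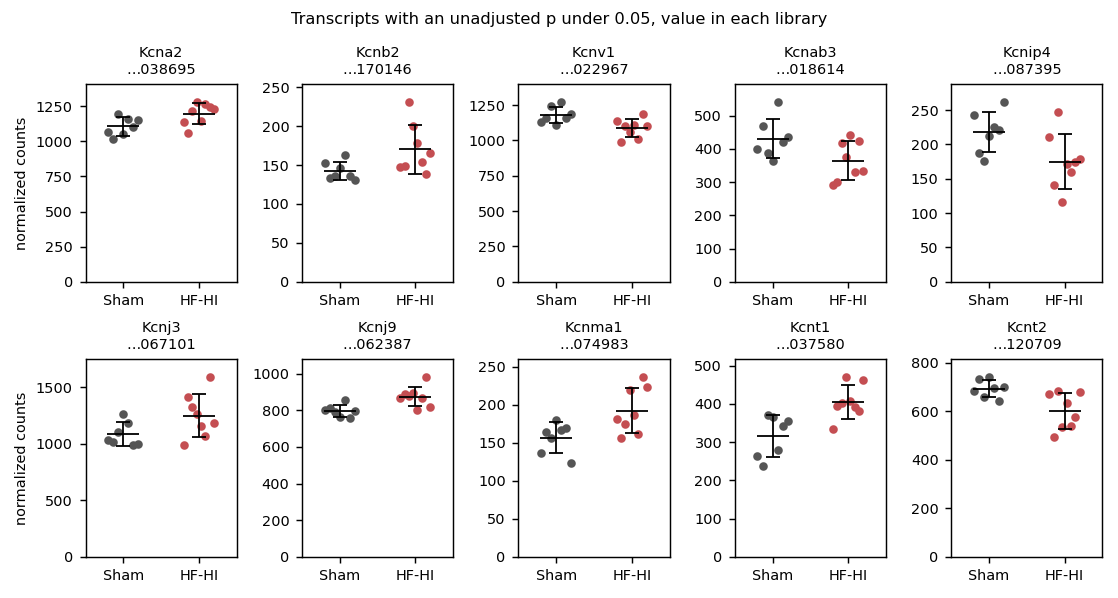
Normalized counts in each library for the 10 transcripts at an unadjusted p under 0.05, with the group mean and SD as bars, Sham in gray and HF-HI in red. Each panel starts at 0, and the groups overlap in every panel.

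Transcript estimates of 1 gene divide the same reads, so reads were also summed per gene and tested with voom over 7741 genes. No potassium channel gene passed an adjusted p under 0.1 (0 of 45, beside 0.0129% of all genes), and 0.276 was the smallest adjusted value. At the unadjusted level of 0.05, 10 of 45 genes (22.2%) were called, beside 9.44% of all genes. Of the 10, 7 were higher and 3 were lower, beside 5.19% and 4.25% of all genes. The median log2 difference was 0.028 over the 45 and −0.0036 over all genes. With depth as a covariate 5 of the 45 were called, 4 higher and 1 lower, beside 6.14% of all genes. They include Kcnh5 (voom, limma unadjusted p = 0.0330), which was not among the 10 called without the covariate (unadjusted p = 0.0889). Among the called genes, Kcnj6, Kcnj9, Kcna2, Kcnv1 and Kcnab3 have 1 listed transcript each. Their gene values are therefore the same reads as above, fitted again with voom, and are not separate support.

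The G protein-gated subunits Kcnj3, Kcnj6 and Kcnj9 were all among the higher genes. Summed Kcnj3 had 1281 to 1530 normalized counts in Sham (median 1368), against 1437 to 1679 in HF-HI (median 1533), and all 8 HF-HI values exceeded the Sham median. Its log2 difference was 0.15 ± 0.04 (SE, voom, limma unadjusted p = 0.00334, adjusted p = 0.276), and it was called with depth as a covariate (unadjusted p = 0.0464) and with each library left out. Kcnj9 had a log2 difference of 0.12 ± 0.04 (unadjusted p = 0.00893), which was not called with depth as a covariate (unadjusted p = 0.1305). Kcnj6 had 0.32 ± 0.14 (unadjusted p = 0.0359), which was called with depth as a covariate (unadjusted p = 0.0300) but not with the striatal covariate (unadjusted p = 0.103). Its call was also lost without any of 8 libraries (HF-HI replicates 1, 3, 4 and 8, Sham replicates 1, 2, 3 and 6), with the largest value an unadjusted p = 0.0933.

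Kcnc1, the Kv3.1 subunit of fast-spiking cells, was higher when its transcripts were summed, though neither passed alone. It had 1048 ± 46.9 in Sham and 1133 ± 59.7 in HF-HI (log2 difference 0.11 ± 0.04, voom, limma unadjusted p = 0.0103, adjusted p = 0.384), with 8 of 8 HF-HI libraries above the Sham median, and it held with depth as a covariate (unadjusted p = 0.0186). Kcna2 (0.11, unadjusted p = 0.0178) and Kcnh1 (1082 ± 49.6 and 1162 ± 64.6, 0.09, unadjusted p = 0.0289) were higher at the unadjusted level. Neither was called with depth as a covariate. The call of Kcnh1 was lost without HF-HI replicate 2, 4, 6 or 7 or Sham replicate 2 or 4 (largest unadjusted p = 0.0671).

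The lower genes were Kcnt2 (968 ± 78.3 and 836 ± 106, log2 difference −0.20, limma unadjusted p = 0.0113), Kcnv1 (−0.11, unadjusted p = 0.0130) and Kcnab3 (−0.24, unadjusted p = 0.0289). With depth as a covariate Kcnv1 was called (unadjusted p = 0.0416), while Kcnt2 (unadjusted p = 0.184) and Kcnab3 (unadjusted p = 0.117) were not. The call of Kcnab3 was lost without HF-HI replicate 1, 2, 6 or 8 or Sham replicate 2 or 5 (largest unadjusted p = 0.0733).

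**Figure D4:**
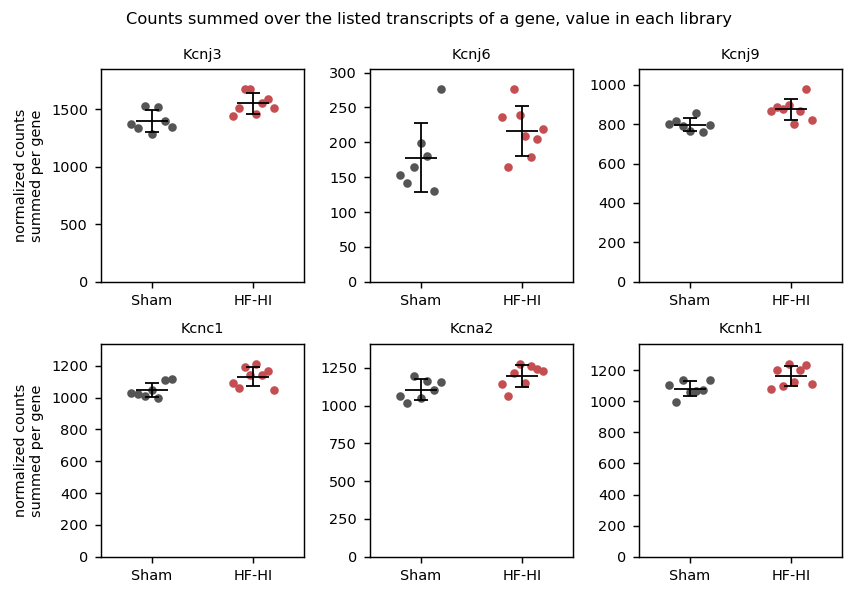
Normalized counts summed over the listed transcripts of a gene, in each library, with the group mean and SD as bars, Sham in gray and HF-HI in red. In Kcnj3, Kcnj9, Kcnc1 and Kcnh1 all 8 HF-HI libraries are above the Sham median, and in Kcnj6 and Kcna2 7 of 8 are.

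Transcript usage asks whether 1 transcript moved relative to the others of its gene. In limma's diffSplice over 4138 transcripts of genes with several, 5 of 28 potassium channel transcripts passed at the unadjusted level of 0.05, beside 14.3% of all such transcripts, and 1 passed an adjusted p under 0.1, beside 2.25%. The 5 were a Kcnt1 transcript and the pairs of Kcnb2 and Kcnh7. Where a gene has only a pair of listed transcripts, the pair mirror each other and amount to 1 test. On data simulated with independent counts for each transcript, this test made more false calls than its threshold allows. Real transcripts of a gene divide the same reads, so its rate of false calls here may differ. Each share was also tested as a log2 ratio to the rest of the gene. That ratio test called 0% of all transcripts at an adjusted p under 0.1 and 6.43% at an unadjusted p under 0.05, and 3 of the 28 were called at the unadjusted level. The 3 were a Kcnt1 transcript and the Kcnb2 pair.

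Kcnt1 ENSMUST00000037580 held 41.1 ± 6.4% of its gene's counts in Sham (29.6 to 48.3%) and 52.1 ± 5.0% in HF-HI (45.6 to 59.7%). In diffSplice its adjusted p was 0.0656 (unadjusted p = 0.00108), and in the ratio test the limma adjusted p was 0.469 (unadjusted p = 0.00238, and with depth as a covariate unadjusted p = 0.0150). The retained-intron transcript of Kcnt1 held 23.2 ± 4.3% and 15.1 ± 5.0% (diffSplice adjusted p = 0.111). Kcnb2 ENSMUST00000170146 held 31.5 ± 2.1% and 38.0 ± 6.3% (diffSplice adjusted p = 0.110, ratio test unadjusted p = 0.0251). Its ratio test was not called with depth as a covariate (limma unadjusted p = 0.05485). The adjusted call of Kcnt1 did not hold with depth as a covariate, nor without HF-HI replicate 2, 4 or 8 or Sham replicate 2. Kcnh7 ENSMUST00000112454 held 4.0 ± 0.35% and 3.2 ± 0.92% (unadjusted p = 0.0376, and in the ratio test unadjusted p = 0.0505).

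**Figure D5:**
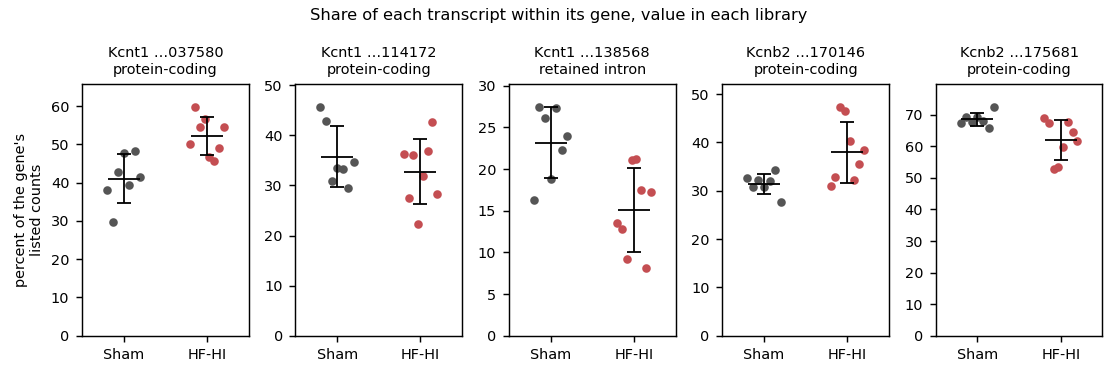
Share of each transcript in the counts of its gene, in percent, for Kcnt1 and Kcnb2 in each library, with the group mean and SD as bars, Sham in gray and HF-HI in red. Kcnt1 ENSMUST00000037580 lies between 29.6 and 48.3% in Sham and between 45.6 and 59.7% in HF-HI, and its retained-intron transcript is lower in HF-HI.

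Among 27 genes that partner potassium channels or are closely related, 19 were listed with 37 transcripts. At the unadjusted level 2 of 37 (5.41%) were called, beside 8.83% of all transcripts. Both were higher, beside 4.94% of all transcripts, and none was called with depth as a covariate, beside 5.14%. Abcc8, the sulfonylurea receptor subunit of ATP-sensitive channels, had 287.5 ± 19.95 and 330.3 ± 26.2 (log2 ratio 0.20, limma unadjusted p = 0.00444, adjusted p = 0.363). Its pore partner Kcnj11 had 143 ± 17.3 and 144 ± 12.8. Amigo1 encodes an adhesion protein that binds Kv2 channels, and its ENSMUST00000050909 had 472 ± 112 and 570 ± 66.1 (limma unadjusted p = 0.0392, adjusted p = 0.540). The other listed Amigo1 transcript, ENSMUST00000106656, went the other way, with 271 ± 106 and 240.9 ± 70.85 (limma unadjusted p = 0.5486).

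Among the marker lists of tissues and cell types, the striatal one had the most called transcripts by number, though the lists differ in size. Of 17 striatal marker transcripts 3 were called lower, beside 3.9% of all transcripts, and none higher. Only 3 of 8 choroid plexus markers were listed. Their sums ran from 2069 to 11410 in Sham and 2087 to 14050 in HF-HI, highest in Sham replicates 1 and 2 and HF-HI replicates 2 and 5. Summed normalized counts of the striatal markers were 10130 to 14850 in Sham and 7421 to 14480 in HF-HI, and Drd2 was not listed. The striatal covariate was not this sum but the mean VSD of the striatal marker transcripts, each first scaled to its own mean and SD over libraries. With it 10 potassium channel transcripts were called, 4 higher and 6 lower, beside 8.23% of all transcripts. Those of Kcnb2 and Kcnj3 were no longer among them. None of the astrocyte, oligodendrocyte, endothelial, choroid plexus, interneuron and blood marker transcripts were called, while 1 of 13 neuronal was higher and 1 of 4 microglial lower. Their part in the potassium channel results was not tested, apart from the striatal covariate. Without HF-HI replicate 2, 10 potassium channel transcripts were called, 8 of them higher, against 6 of 10 higher with all libraries. In the same setting 11 genes were called, 9 of them higher, against 7 of 10 higher with all libraries. Shares over all transcripts and genes in this setting are not given here, so these counts have no comparison.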

How the data were processed

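Cortical total RNA was sequenced from 7 Sham and 8 HF-HI libraries. Per the study's methods, ribosomal RNA was depleted, stranded libraries were aligned to mm10 with STAR, counts per transcript were estimated with eXpress, and the authors deposited variance-stabilized values (VSD, log2 scale) from DESeq2. They also removed outliers among genes of low mean count by Cook's distance. The lowest mean in the file was 107.9 normalized counts, and rarer transcripts were not analysed here. The annotation release was not given in the sources used here.

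The VSD was inverted exactly, with a count of 0 at 9.81, which gave whole reads for 100% of values within 0.1 reads. Transcripts were matched to GENCODE M21 (GRCm38), where 10241 had an entry and 129 did not. In limma 3.58.1 (R 4.3.3) each transcript was fitted on the VSD on group alone (eBayes with a mean trend, two-sided tests of HF-HI minus Sham), with Benjamini-Hochberg adjustment over all 10370 at 0.1. Reads summed per gene were fitted with voom, and usage with diffSplice. Counts at an unadjusted p under 0.05 are descriptions. Scripts were tested on simulated data. Sequences were read from GENCODE M21 and GRCm38.

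Named transcripts and genes were those at an unadjusted p under 0.05, the highest per kb in each subfamily, and a fixed set of channel genes. Some of these genes enter the counts but are not reported here by name or shown in the figures. The members, the lists and the tests were chosen with earlier results of these data known. Alternatives changed the scaling, prior, filter, library weights, depth and striatal covariates, pseudocount and count model, used a replicate block, and left out each library in turn. The striatal covariate and the ratio test of usage were added after seeing the data.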

Additional observations from a re-analysis of the deposited data

Results flagged for a closer look

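In 5 of 118 groups of libraries, 1 library lay far from the others by Dixon's criterion, where chance alone marks about 1 in 20 groups. All 5 were Sham libraries. Kcnj3 ENSMUST00000112632 was lowest in Sham replicate 4 at 22.4 normalized counts, with the next at 323.7. Kcnc1 ENSMUST00000160433 was also lowest in Sham replicate 4, at 304.8 with the next at 374.2. Kcnj10 was highest in Sham replicate 5 at 804.2 with the next at 612.7, Kcnc2 in Sham replicate 7 at 1314 with the next at 1212, and Kcnmb4 in Sham replicate 6 at 555.8 with the next at 509.8. None of these 5 transcripts was among the 10 called.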

How the results depend on the processing

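The count of 10 potassium channel transcripts fell to 3 with depth as a covariate and to 6 in libraries of a size factor above 1, and ranged from 6 (without HF-HI replicate 4) to 16 (without Sham replicate 5) when 1 library was left out. The size factor setting kept only replicates 3, 5 and 8 of HF-HI. The count of 10 genes fell to 5 with depth as a covariate and ranged from 6 (without Sham replicate 2) to 13. Kcnh5 was among the 5 but not among the 10. The usage count of 5 was 3 with depth as a covariate and 3 by the ratio test, and ranged from 3 (without HF-HI replicate 5) to 7. Its single adjusted call became 0 with depth as a covariate, a replicate block or the ratio test, and ranged from 0 to 3 (3 without HF-HI replicate 1 or 6 or Sham replicate 6). The partner count of 2 was 0 with depth as a covariate, 1 in libraries of a size factor above 1 and 4 with the striatal covariate, and ranged from 1 (without HF-HI replicate 3 or 7 or Sham replicate 1) to 5 (without Sham replicate 3). The cause was not tested. No share over all transcripts or genes is given for left-out libraries, the size factor setting or the replicate block. No called transcript or gene changed direction under the alternatives run. Among those not called, the VSD differences of Kcnj4, Kcnmb4 and Kcnq3 were −0.038, −0.017 and −0.0047 with depth as a covariate, from positive values without it.

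Replicate numbers did not pair the libraries, since correlations of same-numbered deviations lay between −0.138 and 0.0905. With a replicate block there were 8 transcripts (3 higher and 5 lower), 13 genes, 5 usage calls and 2 partner calls, and 1 of 7 numbers correlated best with its own. The block ended the calls of Kcnb2 ENSMUST00000170146, Kcnj3 ENSMUST00000067101 and Kcnma1 ENSMUST00000074983 (limma unadjusted p = 0.0601, 0.0614 and 0.0751). Depth limits low transcripts, since 1 read is worth 0.679 to 1.997 normalized counts.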
